A study of Saccharomyces cerevisiae with 6 samples.

Results

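The pheromone response pathway of the budding yeast Saccharomyces cerevisiae was examined through 10 genes: GPA1, STE4 and STE18 of the G protein, STE20, STE5, STE11, STE7 and FUS3 of the kinase cascade, the transcription factor gene STE12 and the fusion gene FUS1. They were found on the array by locus tag, 1 probe each, among 6256 gene probes. RNA came from a strain of the BY4741 background lacking PHO80, the cyclin gene of the Pho85 kinase, and from wild-type BY4741, both sampled at 6 h of fermentation in 80 g/l xylose. Each strain had 3 samples, each labelled with Cy3 and hybridised to 1 Agilent array carrying 7 spots per probe. The comparison asked how expression in xylose fermentation differed without PHO80.

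BY4741 is a haploid laboratory strain of mating type a. In such cells alpha pheromone binds the receptor Ste2 and frees the Gβγ dimer, Ste4 with Ste18, from the Gα subunit Gpa1. Gβγ recruits the scaffold Ste5 and the kinase Ste20, which activates Ste11, and the kinases Ste11, Ste7 and Fus3 then act in turn on Ste5. Fus3 relieves the transcription factor Ste12 of its inhibitors, and Ste12 then induces genes for cell cycle arrest and cell fusion, FUS1 among them. Ste20, Ste11, Ste7 and Ste12 also serve the filamentous growth pathway, and Ste20 and Ste11 the osmotic stress (HOG) pathway. No pheromone treatment is named in the labels.

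On the 6 arrays 92.0% to 94.6% of probes were well above background and no spot was saturated. PHO80 itself was well above background on none of the 3 deletion arrays and on all 3 wild-type arrays, and fell at least 27.4-fold (limma, adjusted p = 0.00153). This and later "at least" folds divide the wild-type mean by a floor, which on each deletion array is the lowest signal well above background or, where brighter, the probe itself. The adjusted p given with such a fold is from the fit to the signals as read, without the floor, and does not test the bound. They hold for the 75th percentile scaling, and normexp background correction gave a smaller log2 fold change for PHO80 (-3.15, against -6.91). Normexp added an offset of 50 to each spot, which by itself shrinks the log2 fold changes of dim probes here and below. Within both strains, arrays 1 and 3 agreed within the noise of repeated spots and were averaged as 1 sample, leaving 2 samples per strain. Deletion array 2 stood apart from its companions (Pearson r 0.972 and 0.973 across 5664 probes, against at least 0.9996 for every other pair within a strain). The labels do not say that samples came from separate cultures, so errors and p-values measure only the spread between these samples, and their small number limits the precision. Each strain was on its own slide with its own scan, so effects of slide and of genotype cannot be told apart. The mating type was checked with marker genes. All 7 genes specific to a cells were above background on all 6 arrays. Of 4 genes specific to alpha cells, which should be silent, STE3 and SAG1 were above background on all 6 arrays, MF(ALPHA)1 on the 3 wild-type arrays and no deletion array, and MF(ALPHA)2 on none. The markers thus did not show the pattern of a cells alone. With 92.0% to 94.6% of all probes above background, such counts say little either way, and the mating type rests on the strain name. The source of the alpha-specific signal was not tested.

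The pathway did not move as a block. STE18, STE7 and STE5 were higher in the deletion strain, GPA1 and STE12 were lower, and STE4, STE20, STE11, FUS3 and FUS1 did not pass the test (limma across all genes, Benjamini-Hochberg adjusted p under 0.05). Thus 3 of 10 genes were higher, where 19.2% of 5863 tested genes were, and 2 of 10 lower, where 34.6% were. In all, 53.8% of tested genes were called, so calls on 5 of 10 members lie near the background. The array values of the strains did not overlap for 8 of the 10 genes, and for 82.0% of all tested genes. Log2 fold changes of the 10 genes ran from -1.19 to 1.56, with a median of 0.12 against -0.28 over all tested genes. The median of all genes depends on the scaling, at 0.03 with median centring or quantile normalization, so changes are also given relative to it. Relative to all genes the members' median was 0.40, and 0.25 without deletion array 2. All 10 genes were well above background on all 6 arrays.

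**Figure D1:**
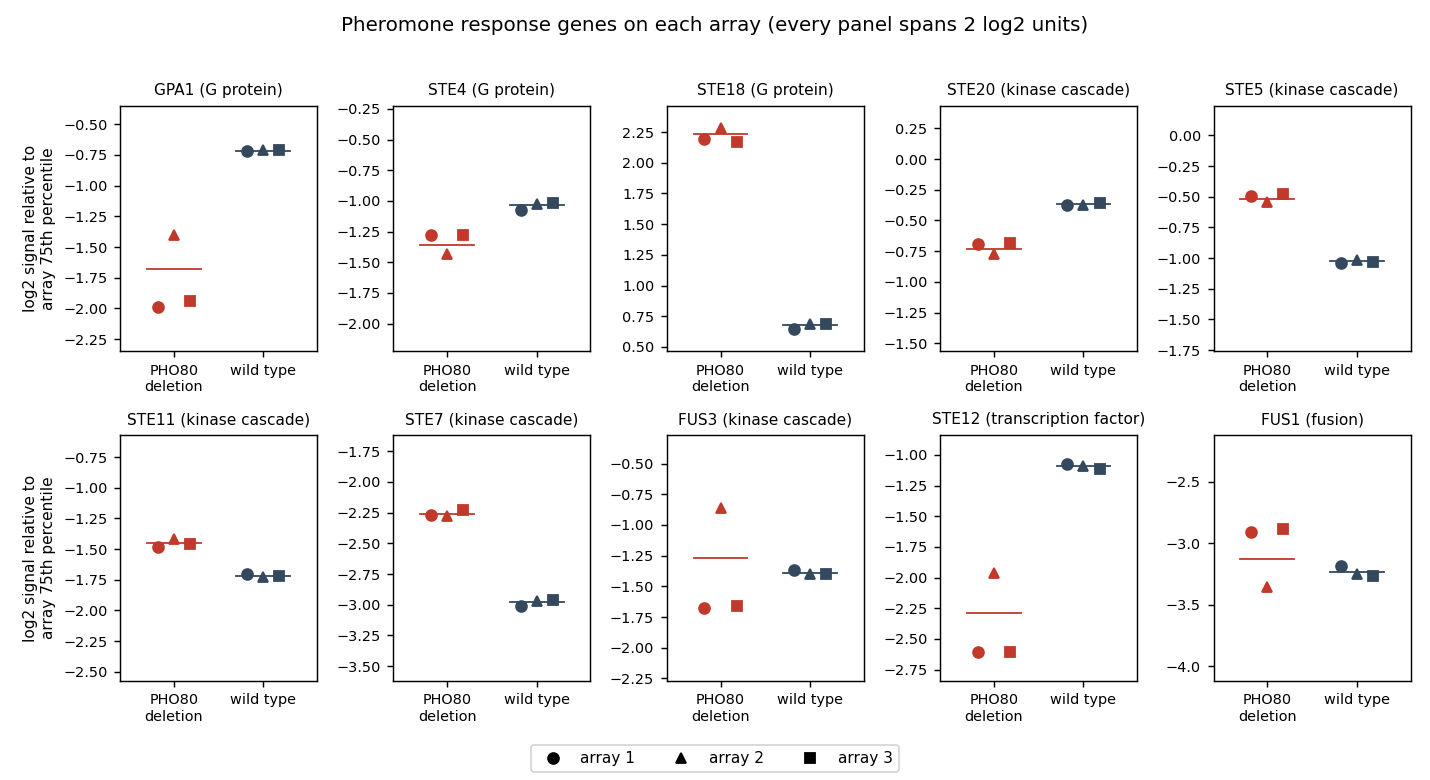
Log2 processed signal, scaled to the 75th percentile of each array, for the 10 pathway genes, with PHO80-deletion arrays in red on the left, wild-type arrays in dark blue on the right, marker shapes for array number and lines for strain means (arrays 1 and 3 averaged first). Wild-type arrays lie close together for every gene, while deletion array 2 stands away from arrays 1 and 3 for GPA1, FUS3, STE12 and FUS1.

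Among the 3 subunits of the G protein, the γ subunit gene STE18 rose and the α subunit gene GPA1 fell. STE18 read 2.19, 2.29 and 2.17 on the deletion arrays, against 0.64, 0.68 and 0.69 in wild type (the scale of all levels here, log2 signal with the 75th percentile of its array set to 0). The strains were widely separated, and no deletion array stood apart. The log2 fold change was 1.56 ± 0.11 (SE, 2 samples per strain), a 2.95-fold higher signal (limma, adjusted p = 0.00312). A smaller log2 fold change than that of STE18 was found for 95.3% of tested genes. The separation was visible before any scaling, with mean processed signals of 15390, 11740 and 22580 on the deletion arrays and 4330, 4601 and 4013 on the wild-type arrays. STE18 was called in all 17 alternative analyses, at 1.39 to 1.87.

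GPA1, whose product holds Gβγ inactive until a receptor signals, read -1.99, -1.40 and -1.94 on the deletion arrays, against -0.72, -0.71 and -0.71 on the wild-type arrays. All deletion arrays were lower, with array 2 nearest to wild type, and the SD over the 3 arrays was 0.33 in the deletion strain and 0.0049 in wild type. Its log2 fold change was -0.97 ± 0.23 (adjusted p = 0.0299, limma), or -0.69 relative to all genes. The value was negative in all 17 alternatives. The call was lost with median centring (-0.66, adjusted p = 0.1), quantile normalization (-0.73, adjusted p = 0.0664), with all wild-type arrays as 1 sample (-0.97, adjusted p = 0.111) and without wild-type array 2 (-0.97, adjusted p = 0.112), and over all alternatives the adjusted p ran from 3.12e-16 to 0.112.

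STE4, the Gβ subunit gene, differed little from the bulk of genes. It read -1.28, -1.44 and -1.28 on the deletion arrays and -1.07, -1.03 and -1.01 on the wild-type arrays. The deletion arrays were all slightly lower on this scale, but the unscaled signals overlapped, with 1388, 891 and 2073 in the deletion strain and 1319, 1403 and 1235 in wild type. The log2 fold change of -0.32 ± 0.12 did not pass (95% CI -0.66 to 0.02, adjusted p = 0.0921, limma) and was -0.04 relative to all genes. It was called lower in 3 of 17 alternatives, with 6 separate arrays (-0.29, adjusted p = 0.00891), with these blocked by replicate number (-0.29, adjusted p = 0.0397) and without deletion array 2 (-0.24, adjusted p = 2.13e-06), and ran from -0.33 to -0.01 with adjusted p from 2.13e-06 to 0.937.

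**Figure D2:**
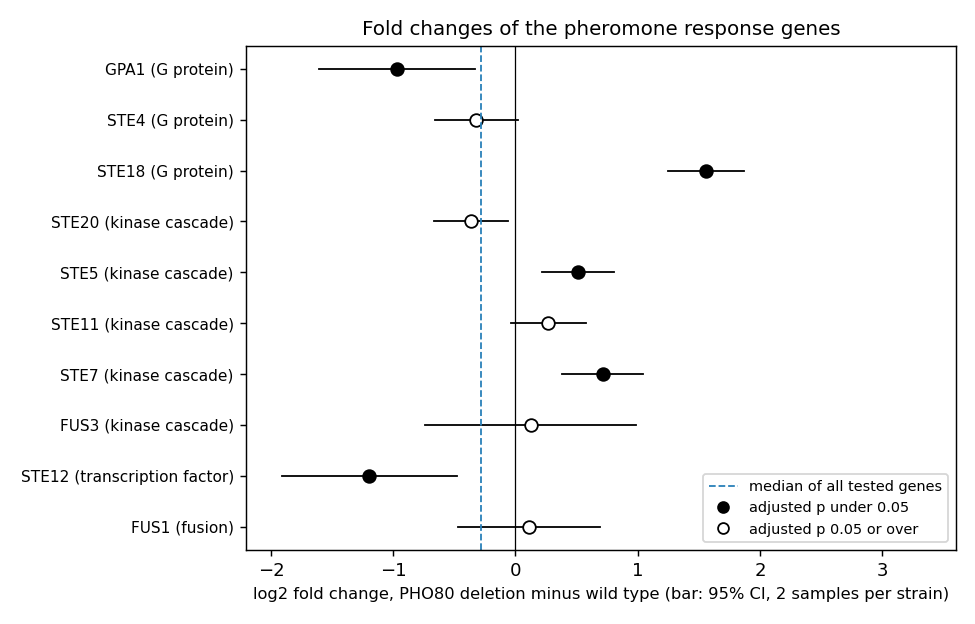
Log2 fold change of each pathway gene, PHO80 deletion minus wild type, with 95% confidence intervals from limma on 2 samples per strain, filled where the adjusted p was under 0.05, and a dashed line at the median of all tested genes (-0.28). STE18 lies farthest above and STE12 farthest below, and the interval of STE4 contains the median of all genes.

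A ratio of 2 genes on the same array does not depend on a shift applied to the whole array, and these ratios show how unequally the subunit genes changed. The log2 ratio of STE18 to GPA1 was 4.18, 3.69 and 4.11 on the deletion arrays, against 1.36, 1.40 and 1.40 on the wild-type arrays. The mean difference was 2.53 (SD between samples 0.23, 2 samples per strain), a 5.77-fold change of the ratio. For STE18 over STE4 the ratio was 3.47, 3.72 and 3.45 in the deletion strain and 1.72, 1.71 and 1.70 in wild type, a difference of 1.88. For STE4 over GPA1 it was 0.71, -0.04 and 0.66 in the deletion strain, against -0.35, -0.32 and -0.30 in wild type, a difference of 0.65 that was 1.01 without deletion array 2. The deletion and wild-type arrays did not overlap in any of these ratios. Among single genes this held for 82.0% of all those tested, and the share among all gene pairs was not computed. Only their change between strains is meaningful, since signals of different probes cannot be set against each other, and these ratios were not tested.

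In the kinase cascade the scaffold gene STE5 and the MAP kinase kinase gene STE7 rose by modest amounts. STE5 read -0.49, -0.54 and -0.48 on the deletion arrays, against -1.04, -1.02 and -1.03 on the wild-type arrays. The arrays of each strain were tightly grouped, and the log2 fold change was 0.51 ± 0.11 (adjusted p = 0.0221, limma), or 0.79 relative to all genes. STE7 read -2.27, -2.28 and -2.23 in the deletion strain, against -3.01, -2.97 and -2.96 in wild type, again with no array standing apart. It rose by 0.71 ± 0.12 (adjusted p = 0.0127, limma), or 0.996 relative to all genes. Both stayed called with median centring and quantile normalization, where STE5 was 0.82 and 0.67 and STE7 1.02 and 1.37. Both lost the call without wild-type array 2, where the spread comes from the deletion arrays alone (adjusted p = 0.416 for STE5 and 0.293 for STE7), and with all wild-type arrays as 1 sample (0.423 and 0.297). Over all alternatives the adjusted p ran from 3.46e-11 to 0.423 for STE5 and from 1.33e-11 to 0.297 for STE7.

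The genes of the kinases on either side of these were not called. STE20, the p21-activated kinase gene at the head of the cascade, read -0.69, -0.77 and -0.68 on the deletion arrays and -0.37, -0.37 and -0.36 on the wild-type arrays. Its log2 fold change of -0.36 ± 0.11 was just short of the threshold (adjusted p = 0.054, limma) and lay -0.08 from the median of all genes. STE20 was called lower with 6 separate arrays (adjusted p = 0.00156), with these blocked by replicate number (adjusted p = 0.0161) and without deletion array 2 (-0.32, adjusted p = 4.28e-08). Over the 17 alternatives it ran from -0.37 to -0.05 with adjusted p from 4.28e-08 to 0.718. STE11, the MAP kinase kinase kinase gene, read -1.49, -1.42 and -1.46 in the deletion strain and -1.70, -1.72 and -1.72 in wild type. The groups did not overlap, but the log2 fold change of 0.27 ± 0.11 did not pass (95% CI -0.04 to 0.58, adjusted p = 0.11, limma). With median centring (0.58, adjusted p = 0.0256) and quantile normalization (0.64, adjusted p = 0.0158) STE11 was called higher, and its adjusted p ran from 2.71e-06 to 0.718 over all alternatives.

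FUS3, the MAP kinase gene, had no common direction among the deletion arrays. It read -1.68, -0.86 and -1.66 there, against -1.37, -1.40 and -1.40 on the wild-type arrays. Arrays 1 and 3 of the deletion strain were below wild type and array 2 was above it by more. The log2 fold change was 0.12 ± 0.31 (95% CI -0.74 to 0.99, adjusted p = 0.756, limma), and without deletion array 2 it was -0.28 and called lower (adjusted p = 4.54e-07). Deletion array 2 minus the mean of deletion arrays 1 and 3 was 0.81 for FUS3, 0.65 for STE12, 0.56 for GPA1 and -0.47 for FUS1, and lay between -0.16 and 0.10 for the other 6 members. KSS1, the MAP kinase that acts beside Fus3 and in filamentous growth, read -4.65, -4.51 and -4.70 in the deletion strain, against -4.05, -3.94 and -3.98 in wild type. It fell by 0.61 ± 0.15 on the log2 scale (adjusted p = 0.0333, limma), but was 0.37 with quantile normalization (adjusted p = 0.175), -0.31 with median centring (adjusted p = 0.206), -0.47 with normexp (adjusted p = 0.0853) and, with the authors' value table, -0.44 (adjusted p = 0.217), in a range of adjusted p from 2.81e-08 to 0.471.

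Further ratios compared neighbouring steps. The log2 ratio of STE7 to STE11 was -0.78, -0.86 and -0.77 on the deletion arrays, against -1.31, -1.25 and -1.24 on the wild-type arrays, a difference of 0.44 (SD 0.04, 2 samples per strain). The ratio of FUS3 to STE7 was 0.59, 1.42 and 0.57 in the deletion strain and 1.64, 1.57 and 1.56 in wild type, so that the deletion arrays were all lower but by very different amounts. The difference was -0.59, and -1.01 without deletion array 2. The ratio of FUS3 to KSS1 was 2.97, 3.65 and 3.04 in the deletion strain and 2.68, 2.54 and 2.58 in wild type. Its difference of 0.74 was 0.42 without deletion array 2 and 0.02 with quantile normalization.

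**Figure D3:**
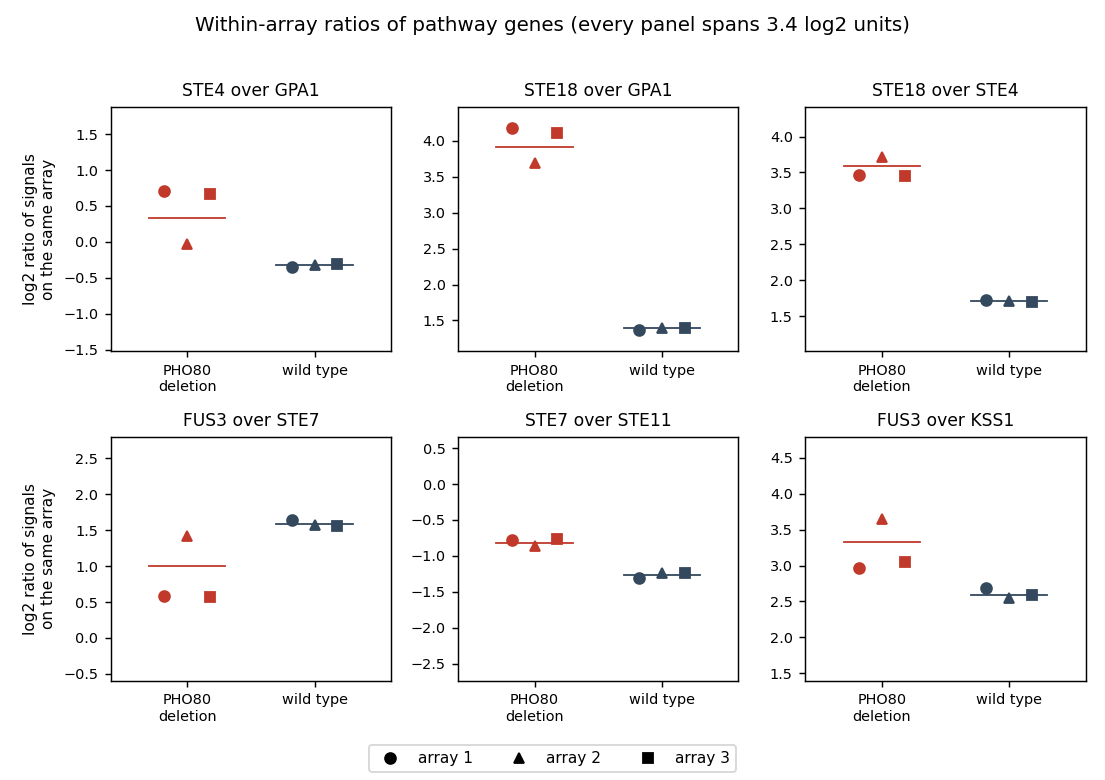
Log2 ratio of the signals of 2 pathway genes on the same array, with PHO80-deletion arrays in red on the left, wild-type arrays in dark blue on the right and lines for strain means (arrays 1 and 3 averaged first). The ratios of STE18 to GPA1 and of STE18 to STE4 are far higher on every deletion array, and deletion array 2 stands apart for STE4 over GPA1 and for FUS3 over STE7.

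At the end of the pathway STE12 fell, whereas its target FUS1 had no clear difference. STE12 read -2.61, -1.96 and -2.61 on the deletion arrays, against -1.07, -1.09 and -1.12 on the wild-type arrays. Every deletion array was lower, array 2 the least. The log2 fold change was -1.19 ± 0.26, a 2.29-fold lower signal (adjusted p = 0.0237, limma), or -0.91 relative to all genes. As for GPA1, the sign held in all 17 alternatives, and the call was lost with median centring (-0.89, adjusted p = 0.0633), quantile normalization (-0.84, adjusted p = 0.0678), with all wild-type arrays as 1 sample (-1.19, adjusted p = 0.0518) and without wild-type array 2 (-1.19, adjusted p = 0.0526), in a range from 3.78e-17 to 0.0678. Without deletion array 2 the value was -1.52, and that of GPA1 was -1.25.

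FUS1, which encodes a membrane protein of the mating projection needed for cell fusion, read -2.91, -3.36 and -2.88 on the deletion arrays and -3.18, -3.25 and -3.26 on the wild-type arrays. Deletion arrays 1 and 3 were above wild type and array 2 below it. The log2 fold change of 0.11 ± 0.21 did not pass (95% CI -0.47 to 0.69, adjusted p = 0.683, limma). It was called higher with quantile normalization (0.90, adjusted p = 0.0114) and without deletion array 2 (0.34, adjusted p = 1.58e-06), and over all alternatives it ran from 0.06 to 0.90 with adjusted p from 1.58e-06 to 0.919.

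Other genes induced by pheromone for mating and fusion were mostly lower. Of 14 listed, 12 were tested, of which 8 fell and none rose (34.6% and 19.2% over all tested genes), with a median log2 fold change of -1.86, or -1.58 relative to all genes. FUS2, whose product also serves cell fusion, read -7.93, -7.79 and -7.67 on the deletion arrays, where it was not well above background, against -5.04, -5.09 and -5.02 on the wild-type arrays. It was at least 5.89-fold lower, and placing it at this bound leaves the list's median as it is. The limma fit used the values as read, without the floor (adjusted p = 0.00265). FUS2 is counted among the 8, but qualified for testing only through the wild-type arrays, where it was brighter. With normexp, whose offset shrinks the changes of dim probes, its log2 fold change was -1.07, against -2.74 with the percentile scaling. CIK1, a kinesin partner used in nuclear fusion, read -5.55, -5.95 and -5.55 in the deletion strain, against -3.22, -3.19 and -3.18 in wild type. KAR4, a transcription factor that acts with Ste12 on karyogamy genes, read -2.58, -2.23 and -2.62 in the deletion strain, against -0.29, -0.30 and -0.33 in wild type. CIK1 fell by 2.56 ± 0.20 on the log2 scale and KAR4 by 2.11 ± 0.17, with adjusted p of 0.00331 and 0.00338 by limma. Quantile normalization gave -1.65 for CIK1. AGA1, the anchor of the a-agglutinin, also fell, with a log2 fold change of -1.95 ± 0.16, which was -0.98 with quantile normalization and -1.22 with normexp, and the other genes called lower were PRM1, PRM2, PRM10 and FIG1, of which FIG1 was above background on only 2 of the 3 deletion arrays and lost its call with quantile normalization (-1.22, against -1.93 with the percentile scaling, adjusted p = 0.0948). FIG2, PRM4, AFR1 and KAR5 were not called, and KAR5 had 1 far lower deletion array (-5.39 on array 2, against -3.12 and -3.11 on arrays 1 and 3). PRM3 and PRM6 were too dim to test. With quantile normalization 7 were lower and 1 higher, without wild-type array 2 the counts were 9 and 0, and without deletion array 2 they were 10 and 2.

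The gene of the receptor and the other genes specific to a cells were lower, 6 of 7, with none higher (34.6% and 19.2% over all tested genes). STE2, the alpha pheromone receptor, read -2.58, -2.16 and -2.57 on the deletion arrays, against -1.66, -1.59 and -1.68 on the wild-type arrays. All deletion arrays were lower, and the log2 fold change was -0.74 ± 0.19 (adjusted p = 0.0358, limma). It was not called with median centring (-0.43, adjusted p = 0.167) or quantile normalization (-0.29, adjusted p = 0.301). The call was also lost with all wild-type arrays as 1 sample (-0.73) and without wild-type array 2 (-0.70). The a-factor exporter gene STE6, AGA2 and ASG7, whose product limits Gβγ signalling, had log2 fold changes of -1.91, -1.97 and -1.80 and were called in all alternatives. Their size depended on the processing, since AGA2 was -1.02 with quantile normalization and -1.13 with normexp, and ASG7 was -1.11 with quantile normalization, while STE6 stayed between -1.94 and -1.60. The pheromone genes MFA2 and MFA1 fell less (-0.94 and -0.56), although MFA1 was 0.09 with quantile normalization. They are paralogs whose transcripts a probe may not separate, and probe sequences were not used here. The count of genes lower was 3 without wild-type array 2 and 4 with either median centring or quantile normalization. Among genes specific to alpha cells, MF(ALPHA)1 fell at least 19.1-fold, with -8.05, -7.85 and -8.09 on the deletion arrays and -3.41, -3.37 and -3.39 on the wild-type arrays (adjusted p = 0.00221, limma on these values without the floor). It too qualified for testing only through the wild-type arrays. With normexp and its offset the log2 fold change of MF(ALPHA)1 was -2.26, against -4.57 with the percentile scaling. SAG1, the α-agglutinin gene, was lower as well (-1.09), but lost its call under quantile normalization (-0.50, adjusted p = 0.152) and with median centring (-0.78, adjusted p = 0.0514). SAG1 also lost it with all wild-type arrays as 1 sample (-1.08) and without wild-type array 2 (-1.07). STE3 was not called (-0.07 ± 0.19). Of 4 other genes expressed in haploid cells, NEJ1 and AXL1 were lower (-1.87 and -0.82), RME1, a repressor of meiosis, was higher (2.83-fold), and HO was not called. AXL1 was -0.04 with quantile normalization and not called (adjusted p = 0.809, limma). It also lost its call with all wild-type arrays as 1 sample (-0.81) and without wild-type array 2 (-0.78). The part of the alpha-specific signal in the pathway's values was not tested.

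Of 8 adaptor and polarity genes 3 fell and 1 rose, near the 34.6% and 19.2% over all tested genes, and their median lay at -0.03 relative to all genes. FAR1, which couples Fus3 to cell cycle arrest and Gβγ to polarised growth, had the largest fall among these 8 genes. It read -5.80, -5.78 and -5.78 on the deletion arrays, against -2.14, -2.06 and -2.10 on the wild-type arrays. The arrays of each strain were tightly grouped, and the log2 fold change was -3.70 ± 0.13, or -3.42 relative to all genes (adjusted p = 0.00208, limma). FAR1 was called in all 17 alternatives, at -3.72 to -2.76. STE50, the adaptor of Ste11, fell by 1.19 ± 0.13 on the log2 scale and CDC24, the exchange factor for Cdc42, by 0.51 ± 0.11. CDC24 was not called with either median centring or quantile normalization, and STE50 was -0.71 with quantile normalization. Neither gene was called without wild-type array 2 (-1.15 for STE50 and -0.51 for CDC24) or with all wild-type arrays as 1 sample (-1.17 and -0.51). The casein kinase gene YCK1 rose (1.37 ± 0.17), while its paralog YCK2 had a log2 fold change of -0.01, which was 0.45 with quantile normalization (adjusted p = 0.0364, in a range from 0.0364 to 0.999). CDC42, BEM1 and AKR1 were not called, although AKR1 (0.82, adjusted p = 0.0566) was called higher in 7 of 17 alternatives, in a range of adjusted p from 1.73e-15 to 0.173. With wild-type array 2 left out 1 gene was lower and 1 higher, and with deletion array 2 left out 5 were lower and 2 higher.

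Of 10 genes that restrain or run beside the pathway 5 fell and 1 rose, against 34.6% and 19.2% over all tested genes, a balance that turned to 2 and 2 with median centring. SST2, which speeds GTP hydrolysis by Gpa1, read -4.34, -4.51 and -4.36 on the deletion arrays, against -3.64, -3.65 and -3.66 on the wild-type arrays, a log2 fold change of -0.78 ± 0.14 (adjusted p = 0.0162, limma). It was 0.18 with quantile normalization (adjusted p = 0.283), and the adjusted p ran from 2.94e-09 to 0.302. DIG1, an inhibitor of Ste12, was not called (-0.05 ± 0.16, adjusted p = 0.8, limma). TEC1, the partner of Ste12 in filamentous growth, fell by 1.79 ± 0.19 on the log2 scale, and MPT5, an RNA-binding protein gene, by 1.51 ± 0.13, which was -0.95 with quantile normalization. MCM1, which encodes a transcription factor shared by mating and cell cycle genes, rose (1.87 ± 0.27). The MAP kinase phosphatase gene MSG5 was also called lower, though not with median centring (adjusted p = 0.106) or quantile normalization (adjusted p = 0.072). MSG5 also lost its call with all wild-type arrays as 1 sample (-1.02) and without wild-type array 2 (-1.03). KSS1 is described above. Quantile normalization also gave 2 genes lower and 2 higher in this list, without wild-type array 2 the counts were 2 and 1, and without deletion array 2 they were 7 and 3.

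HOG and filamentous growth genes were listed as well, not all of them from branches that share Ste20 and Ste11 with mating. Of these 12 genes 6 fell and 2 rose (34.6% and 19.2% over all tested genes), and their median lay -0.08 from that of all genes. The membrane sensor genes SHO1 (-1.72 ± 0.12) and MSB2 (-1.01 ± 0.11) and the phosphorelay gene YPD1 (-1.06 ± 0.16) were lower, as were SSK1, SSK2 and SSK22. PBS2, the MAP kinase kinase and scaffold gene of the HOG pathway, rose by 1.97 ± 0.27 and the membrane anchor gene OPY2 by 1.03 ± 0.17. SHO1 and PBS2 were called in all 17 alternatives, and MSB2, YPD1 and OPY2 in 15 each. Without wild-type array 2, MSB2, YPD1 and OPY2 were -0.99, -1.06 and 1.04 and were not called. SSK1, SSK2 and SSK22 were called in 13, 14 and 13, with log2 fold changes of -1.03 to -0.16, -0.67 to -0.33 and -0.54 to -0.16. HOG1, SLN1, CLA4 and FLO11 were not called. The counts were 1 lower and 1 higher without wild-type array 2, 8 and 4 without deletion array 2 and 3 and 3 with median centring. Over the 7 lists together, 32 of 56 tested genes were lower and 5 higher, against 34.6% and 19.2% of all tested genes, and their median lay at -0.48 relative to all genes.

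**Figure D4:**
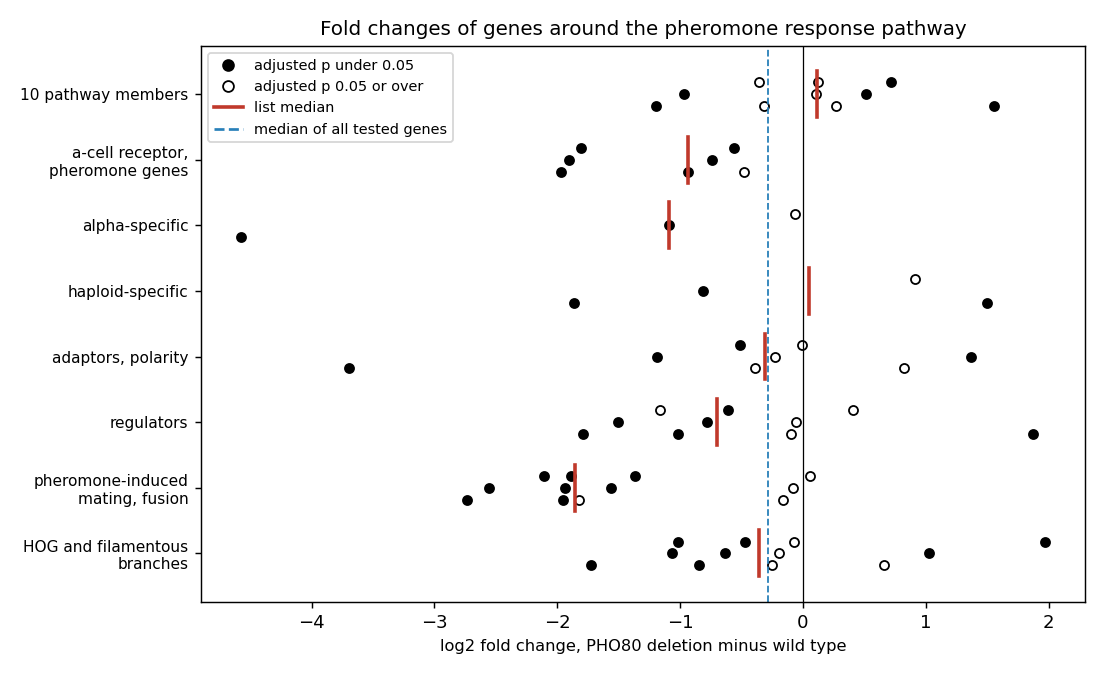
Log2 fold changes (PHO80 deletion minus wild type) of the tested genes in each list, filled where the adjusted p was under 0.05, with list medians as red bars and the median of all tested genes (-0.28) dashed. The 10 pathway members lie on both sides, with a median of 0.12, while the pheromone-induced mating and fusion genes have a median of -1.86.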

How the data were processed

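RNA of 3 PHO80-deletion and 3 wild-type samples was hybridised in 1 colour (Cy3) to Agilent yeast arrays, per the labels. The deposited scanner files hold spot intensity on a linear scale, from Feature Extraction 10.1.1.1 (per the file headers and the submitters' processing notes). The processed signal had its background subtracted and was not scaled between arrays. The authors' deposited value table holds 1 intensity per probe, with column medians of 1120, 746.5 and 1670 in the deletion strain and 1120, 1140 and 950.5 in wild type. Comparison with the scanner files showed a linear scale, no centring and the same direction (r 0.996 to 0.998 across probes). Its rules for combining spots are not given in the sources used here.

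Control spots and outlier spots (1.12% to 1.88%) were dropped. Log2 signals were scaled to the 75th percentile of their array and averaged over a probe's spots. A probe counted as above background where over 0.5 of its spots were flagged so, and was tested if this held on at least 3 of 6 arrays. PHO80, FUS2 and MF(ALPHA)1 met this through the wild-type arrays alone, and the list counts include FUS2 and MF(ALPHA)1. Locus tags were named through the RefSeq table of assembly R64 (5756 of 6256 matched). The array's build and annotation are not given in the sources used here, so no coordinates are printed.

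Samples were grouped by label. A pair of arrays was averaged as 1 sample where their median squared difference over the spot variance did not exceed what spot noise gives (0.484). It was 0.412 and 0.435 for arrays 1 and 3 of the deletion strain and of wild type, and 88.6 to 94.8 and 0.634 to 0.669 for the other pairs. The wild-type arrays may thus all be technical repeats. The comparison used limma 3.58.1 under R 4.3.3 (lmFit, eBayes with intensity trend, 2 residual and 1.93 prior degrees of freedom), with Benjamini-Hochberg adjusted p over 5863 genes and a threshold of 0.05. Errors are SE from this fit. The fit was also run on simulated data with the same spread in both strains. In the real data the spread lies mostly in the deletion strain, so nothing is drawn from that run. Scaling, background correction, filter, variance model, replicate definition, replicate block, left-out arrays and the value table were varied. Members and lists were chosen with earlier results of these data known. All members and all called list genes are named, with values for up to 4 per list by adjusted p and for STE2, SST2, FAR1, KSS1, DIG1 and PHO80 always; values of other list genes were added after they were seen. Figures were drawn with matplotlib 3.10.9.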

Additional observations from a re-analysis of the deposited data

How the results depend on the processing

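Of the 10 pathway genes, STE18 was the only one called in all 17 alternatives. FUS3 was the only member to change to a call of opposite sign (-0.28 without deletion array 2, in a range of -0.28 to 0.13 over left-out arrays). Genes called over the array, higher and lower, were 519 and 1130 with the wild type as 1 sample, and 523 to 2200 and 1122 to 3289 when each array was left out. Both extremes came from array 2 of a strain, and fits that leave 1 sample in a strain assume that it varies like the other strain, so the low p-values without deletion array 2 rest on wild-type arrays near spot noise. Members called higher were 5 with quantile normalization, 1 with the wild type as 1 sample and 1 to 5 over left-out arrays. Members called lower were 0 with median centring, with quantile normalization and with the wild type as 1 sample, 4 with 6 separate arrays, and 0 to 5 over left-out arrays. List genes called higher were 8 with median centring, 10 with quantile normalization, 9 with 6 separate arrays and 4 to 13 over left-out arrays; those lower were 18 with the wild type as 1 sample and 18 to 42 over left-out arrays. Among list genes called in either of the analyses compared, MFA1 (0.09), SST2 (0.18), KSS1 (0.37) and YCK2 (0.45) changed sign with quantile normalization. Without deletion array 2 DIG1 (0.12), PRM4 (0.38) and SLN1 (0.16) did, where left-out arrays gave ranges of -0.06 to 0.12, -0.11 to 0.38 and -0.08 to 0.16. Genes called in neither also changed sign, among them BAR1 (0.39) and BEM1 (0.22) with quantile normalization. The cause was not tested. Ratios moved to 2.12 for STE18 over GPA1, 1.47 for STE18 over STE4, 0.73 for STE7 over STE11 and 0.02 for FUS3 over KSS1 with quantile normalization, and STE7 over STE11 to 0.53 with the value table. Normexp used spot medians, chosen after the files were seen to hold no spot means, and it changed no member's call. Among list genes it lost KSS1 (adjusted p = 0.0853, in a range from 2.81e-08 to 0.471) and added AKR1 and PTP3 (0.0461 and 0.0458, in ranges from 1.73e-15 to 0.173 and 1.99e-12 to 0.0922), and it moved FUS2 to -1.07 and MF(ALPHA)1 to -2.26.

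Same-numbered arrays of the strains did not deviate together (r of deviations -0.21, -0.17 and -0.01), and no deletion array correlated best with its own number. With replicate block, 6 arrays gave 4 members and 9 list genes higher and 4 members lower, and 2 samples per strain gave 8 list genes higher and 2 members each way, STE5 losing its call (adjusted p = 0.0915, in a range from 3.46e-11 to 0.423).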
